A study of Homo sapiens with 9 samples.

Results

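SYNJ2BP, RRBP1, the metaxins MTX1, MTX2 and MTX3, SAMM50 and the channel genes VDAC1, VDAC2 and VDAC3 were followed in SH-Sy5y cells, a human neuroblastoma cell line, that had received a mimic of the microRNA miR-1229-3p. These 9 genes of 14943 in the count table were taken by name, with earlier results of these data known: genes of the outer mitochondrial membrane, together with RRBP1, the partner of SYNJ2BP in the endoplasmic reticulum (ER). SYNJ2BP and MTX3 were selected on their measured fall in these same libraries, as putative targets of the study, so their values are given as a description, with standard errors and no test, and the 7 other genes carry the tests. For SYNJ2BP the study also reported luciferase assays in HEK cells, outside these libraries, from which it named the gene a direct target.

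The experiment looked for mRNAs that the microRNA acts on directly. Polyadenylated RNA was sequenced 48 h after transfection from 3 groups of 3 libraries: cells with 40 pmol of a negative control oligonucleotide and no mimic (Ctrl.), cells with 20 pmol of mimic and 20 pmol of that oligonucleotide (10 nM), and cells with 40 pmol of mimic and 0 pmol of the oligonucleotide (20 nM). The control oligonucleotide therefore falls from 40 to 20 to 0 pmol as the mimic rises. In every comparison between the 3 groups, and in the trend over concentrations, more mimic and less control oligonucleotide cannot be told apart. All libraries came from 1 cell line, the RNA of a pair of wells was pooled where possible, and nothing in the labels says that the replicates were separate cultures, so p-values measure the spread between these libraries.

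Mitochondria import nearly all of their proteins from the cytosol. Channels with a barrel shape, such as the VDACs, which let metabolites and ions cross the outer membrane, are folded into that membrane by the sorting and assembly machinery, whose core is SAMM50 and whose partners on the cytosolic side are the metaxins. SYNJ2BP is anchored in the same membrane by its tail and holds the ER close through RRBP1, a ribosome-binding protein of the ER, and such contact sites pass calcium and lipids between the organelles. A microRNA pairs its seed with matching stretches in the 3′ untranslated region (UTR) of a messenger RNA and usually lowers it modestly.

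The sequences that connect the mimic to these genes are shown first. The mature microRNA, as given by RefSeq (GRCh38.p14), is encoded on the minus strand at chr5:179798278-179798300. Its seed, bases 2 to 8 counted from the 5′ end, is in capitals.
miR-1229-3p: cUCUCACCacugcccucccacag
The sense strand of each longest annotated 3′ UTR (GENCODE 44, GRCh38) was scanned for 4 motifs: GGTGAGAA (8-mer), GGTGAGA (7-mer m8), GTGAGAA (7-mer A1) and GTGAGA (6-mer). The shorter motifs are contained in the 8-mer, and each match is counted once as the longest kind it belongs to.

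SYNJ2BP (ENSG00000213463, chr14:70366499-70417090, minus strand) has a 3′ UTR of 6492 bases, and that UTR held 4 matches. The matched bases are in capitals, with flanks to 30 bases, and the positions run from the base after the stop codon.
SYNJ2BP 464 to 470 (7-mer A1, chr14:70372521-70372527): atcgacaaagaGTGAGAAgagcatttttac
SYNJ2BP 563 to 570 (8-mer, chr14:70372421-70372428): ggagaattaaaGGTGAGAAagctactttgt
SYNJ2BP 2237 to 2244 (8-mer, chr14:70370747-70370754): attcataaacaGGTGAGAAgttaaaagtat
SYNJ2BP 3842 to 3847 (6-mer, chr14:70369144-70369149): ctgagcaacggaGTGAGAccttgtctcaaa
MTX3 (ENSG00000177034, chr5:79976716-79991262, minus strand) has a 3′ UTR of 6968 bases with 3 matches, of which 1 has 7 bases.
MTX3 1451 to 1457 (7-mer A1, chr5:79982227-79982233): gttttaactaaGTGAGAAataaggtagtct
MTX3 1662 to 1667 (6-mer, chr5:79982017-79982022): gaaatcatgactGTGAGActttattgtcct
MTX3 2366 to 2371 (6-mer, chr5:79981313-79981318): catgtgagtttaGTGAGAgtttatatgttg
All 3 annotated coding transcripts of MTX3 contain each of its matches. The nearest pair in SYNJ2BP, the 7-mer and the first 8-mer, lies near the start of the UTR.

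None of the 4 motifs occurred in any annotated coding 3′ UTR of the other 7 genes. Their longest UTRs are short: 504 bases in RRBP1, 126 in MTX1, 361 in MTX2, 146 in SAMM50, 900 in VDAC1, 459 in VDAC2 and 475 in VDAC3, against a median of 1553 over 13779 genes with a UTR. The absence says only that these letters are not in these windows. Of the 13779 UTRs, 22.6% held at least 1 match of 7 or 8 bases, 4.62% an 8-mer and 1.61% at least 3 matches of 7 or 8 bases, the number found in SYNJ2BP. Length goes with such matches: among 849 UTRs of at least 6000 bases, the class of SYNJ2BP and MTX3, 70.6% held a match of 7 or 8 bases and 14.3% held 3 or more, whereas among 4551 UTRs of at most 900 bases 5.3% held one. A match is a description of the sequence and was not tested here as a site.

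**Figure D1:**
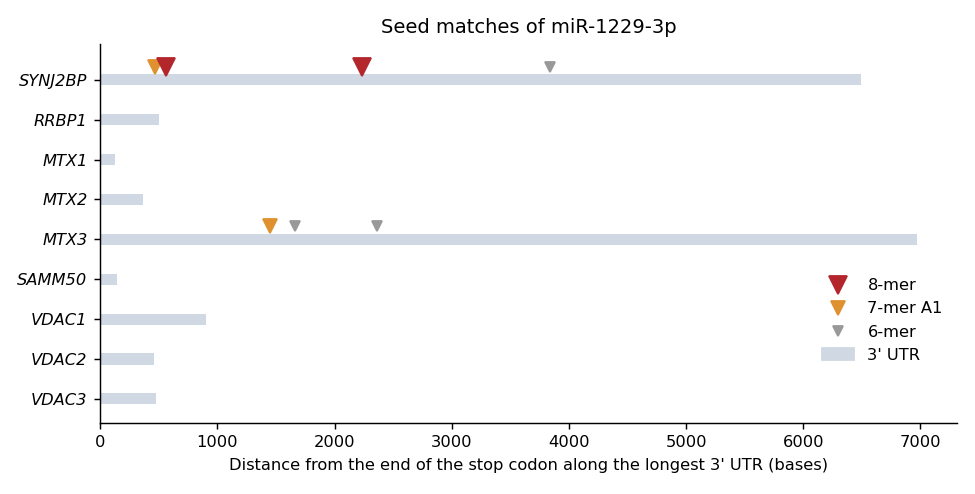
Grey bars show the longest annotated 3′ UTR of each of the 9 genes, with the distance from the stop codon in bases on the horizontal axis, and triangles mark seed matches by kind. SYNJ2BP carries 2 8-mers, 1 7-mer and 1 6-mer, MTX3 carries 1 7-mer and 2 6-mers, and the 7 shorter UTRs carry none.

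The libraries held between 17.4 and 28.2 M estimated counts each. 20 nM replicate 3 stood apart: it lay at 47.4 on the first principal component (30.4% of the variance), where the other 8 libraries lay between -17.1 and 7.72, and the median SD of log2 CPM over genes was 0.175 at 20 nM against 0.0851 in Ctrl. and 0.0921 at 10 nM. Results below are therefore also given without that library where it matters. All 12 adrenergic neuroblastoma markers, among them DBH, were in the table and summed to 6889 to 6995 CPM in Ctrl., 7193 to 7764 at 10 nM and 6853 to 8154 at 20 nM. Of 6 mesenchymal markers 4 were present (153 to 213 CPM over all libraries, PRRX1 and TWIST2 absent), and the glial and blood lists, in which GFAP, AQP4, PTPRC and CD3E were among the genes not in the table, summed to at most 5.59 and 5.88 CPM. In such bulk samples, fewer cells of a kind and less RNA per cell cannot be told apart.

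Levels below are counts in each M of a library's total (CPM) scaled by TMM, a normalisation that corrects library totals for composition. Differences are log2 fold changes of a model over all 9 libraries that also holds 1 surrogate variable for unexplained variation between libraries, so they can depart from the ratio of the mean CPM. A gene was called changed at a Benjamini-Hochberg adjusted p under 0.05 over all 14943 genes. Libraries of the same replicate number deviated together between Ctrl. and each mimic group, so where it changes a call, values with the replicate number as a block, either in place of the surrogate variable or beside it, are given too.

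With the calls read against all genes, RRBP1, at 20 nM and in the dose trend, was the only one of the 7 tested genes past the threshold in this fit. At 10 nM edgeR called 0 of 7, where 0.649% of all genes were called (0.221% higher and 0.428% lower), and 1 of the 7 had an unadjusted p under 0.05. DESeq2 also called 0 of 7, and only 184 of all 14943 genes. With the block edgeR again called 0 of 7, against 0.0201% (in place) and 11.2% (beside) of all genes. At 20 nM 1 of 7 was called, RRBP1, which was higher, against 13.9% of all genes (7.8% higher and 6.08% lower). With the block it was 1 of 7 against 13.6% in place of the surrogate variable and 2 of 7, with VDAC1, against 26% beside it. Between 20 nM and 10 nM edgeR called 0 of 7 against 2.79% of all genes (1.91% higher and 0.883% lower), with 1 at an unadjusted p under 0.05. DESeq2 called 0 of 7 there, and 435 of all genes. With the block edgeR called 0 of 7 against 0.83% of all genes (in place) and 1 of 7, RRBP1, against 10.2% (beside). The dose trend called 1 of 7, again RRBP1, against 17.5% (9.84% higher and 7.69% lower). With the block it was 1 of 7 against 16.4% (in place) and 2 of 7, with VDAC1, against 23.9% (beside). The median log2 difference of the 7 was 0.01 at 10 nM and 0.05 at 20 nM, against 0.00 over all genes in both. The share of all genes at an unadjusted p under 0.05 was not computed, so nothing is read from such counts here or below.

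Of the 9 genes, SYNJ2BP and MTX3 (both lower) and RRBP1 and VDAC1 (both higher) had ranges of CPM that did not overlap Ctrl. at 10 nM, as did 20% of all genes (10.1% higher and 9.9% lower). The same 4 genes were clear of Ctrl. in the same directions at 20 nM, where 28.9% of all genes were (15.2% higher and 13.7% lower). Between 20 nM and 10 nM the ranges of MTX1 and VDAC1 (higher) and MTX2 (lower) were separate, against 14.2% of all genes (7.92% higher and 6.32% lower). SYNJ2BP and MTX3 were chosen for the contrast with Ctrl., so nothing is read from their part in these counts.

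SYNJ2BP was lower in all 6 mimic libraries than in any control. Its level was 62.2, 66.4 and 59.8 CPM in Ctrl. replicates 1 to 3, or 62.8 ± 3.31 (mean ± SD, n = 3), from 1228 to 1760 estimated counts a library. At 10 nM it was 46.3, 47.0 and 44.8 CPM (46.0 ± 1.10). At 20 nM it was 50.1, 49.9 and 42.7 CPM (47.6 ± 4.196). The lowest library was 20 nM replicate 3, the other 20 nM libraries lay above all 10 nM libraries, and both mimic groups stayed clear of the controls.

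The fitted log2 difference of SYNJ2BP from Ctrl. was -0.42 (SE 0.051) at 10 nM, or a percent change of -25.4, and -0.31 (SE 0.058) at 20 nM (percent change -19.4). Doubling the mimic thus went with no further decrease: the 20 nM minus 10 nM difference was 0.11 (SE 0.056), and the slope fitted across 0, 10 and 20 nM was -0.33 (SE 0.092) per 20 nM. Without 20 nM replicate 3 the values were -0.43 at 10 nM and -0.33 at 20 nM. A fit with no surrogate variable gave -0.45 at 10 nM and -0.40 at 20 nM, a smaller gap between the doses.

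The gene SYNJ2BP overlaps COX16 and the read-through gene SYNJ2BP-COX16 on the same strand, which can share reads with it. SYNJ2BP-COX16, a transcript unit that runs from SYNJ2BP into COX16, had only 10.9 to 55.4 estimated counts a library. Its level was 1.38, 1.30 and 0.410 CPM in Ctrl., 2.04, 1.41 and 1.89 CPM at 10 nM, and 1.34, 2.37 and 1.54 CPM at 20 nM. The levels are small beside those of SYNJ2BP, with positive log2 differences of 0.85 (SE 0.40, edgeR adjusted p = 0.369) and 0.90 (SE 0.45, adjusted p = 0.212) that did not pass. Joining its counts to SYNJ2BP, an alternative chosen after the data were seen, gave -0.39 at 10 nM and -0.28 at 20 nM. COX16, an assembly factor of cytochrome c oxidase, averaged 39.5 ± 3.09, 39.9 ± 0.722 and 38.9 ± 1.74 CPM in Ctrl., 10 nM and 20 nM (edgeR adjusted p = 0.969 and 0.743).

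RRBP1 (ENSG00000125844, chr20:17613678-17682295, minus strand), the ER partner that SYNJ2BP holds, was the only one of the 7 tested genes called in the fit described, and it rose. Its level was 53.2, 55.1 and 51.0 CPM in Ctrl. (53.1 ± 2.04). At 10 nM it was 55.6, 59.3 and 56.6 CPM (57.2 ± 1.92). At 20 nM it was 63.9, 65.5 and 57.5 CPM (62.3 ± 4.21). All 6 mimic libraries lay above all controls, the 10 nM and 20 nM ranges overlapped, and 20 nM replicate 3 was the lowest of its group.

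At 20 nM RRBP1 was higher by 0.29 on the log2 scale (SE 0.057, 95% interval 0.17 to 0.41, 1.22-fold, edgeR quasi-likelihood adjusted p = 0.00484), and across concentrations by 0.26 per 20 nM (SE 0.053, adjusted p = 0.00427). At 10 nM its difference of 0.12 (SE 0.051, interval 0.01 to 0.23) did not pass (edgeR adjusted p = 0.297, unadjusted p = 0.0298). The 20 nM minus 10 nM difference was 0.17 (SE 0.054, interval 0.05 to 0.28, edgeR adjusted p = 0.134), so the step between the doses did not pass either in this fit. With the block beside the surrogate variable that step passed (edgeR adjusted p = 0.0418). The 20 nM call held without replicate 3 of that group (0.28, edgeR adjusted p = 0.00329), but it was lost without a surrogate variable (0.23, adjusted p = 0.0742) and in a fit of the 20 nM and Ctrl. libraries alone (0.22, adjusted p = 0.18). The trend was likewise not past the threshold without surrogate variables (0.23, edgeR adjusted p = 0.0517).

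The SYNJ2BP and RRBP1 levels can be read against each other within a library, where the library total drops out. Their log2 ratio of CPM stood at 0.22, 0.27 and 0.23 in the controls, -0.26, -0.34 and -0.34 at 10 nM, and -0.35, -0.39 and -0.43 at 20 nM. SYNJ2BP thus had the higher CPM of the pair in every control and the lower in every mimic library. Since SYNJ2BP was picked for its fall, this ratio carries no test.

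MTX3, a paralogue of MTX1 and MTX2, was also lower in all 6 mimic libraries than in any control. Its level was 55.3, 46.2 and 50.3 CPM in Ctrl. (50.6 ± 4.56). At 10 nM it was 43.9, 37.8 and 41.3 CPM (41.0 ± 3.03). At 20 nM it was 41.0, 33.5 and 33.7 CPM (36.1 ± 4.26). In contrast to SYNJ2BP, each 20 nM library lay below the 10 nM library of the same number, but the ranges of the doses overlapped, since 20 nM replicate 1 was close to the 10 nM levels.

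The fitted log2 difference of MTX3 was -0.28 (SE 0.082, percent change -17.9) at 10 nM and -0.41 (SE 0.094, percent change -24.8) at 20 nM, with a slope of -0.40 (SE 0.070) per 20 nM. The 20 nM minus 10 nM difference, -0.13 (SE 0.090), was not large against its standard error. Without 20 nM replicate 3 the values were -0.30 and -0.45. Leaving out 20 nM replicate 1 moved the slope to -0.61, more than 1.5 times the value with all libraries, and the 20 nM difference to -0.59. It also moved the slope of SYNJ2BP to -0.46.

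**Figure D2:**
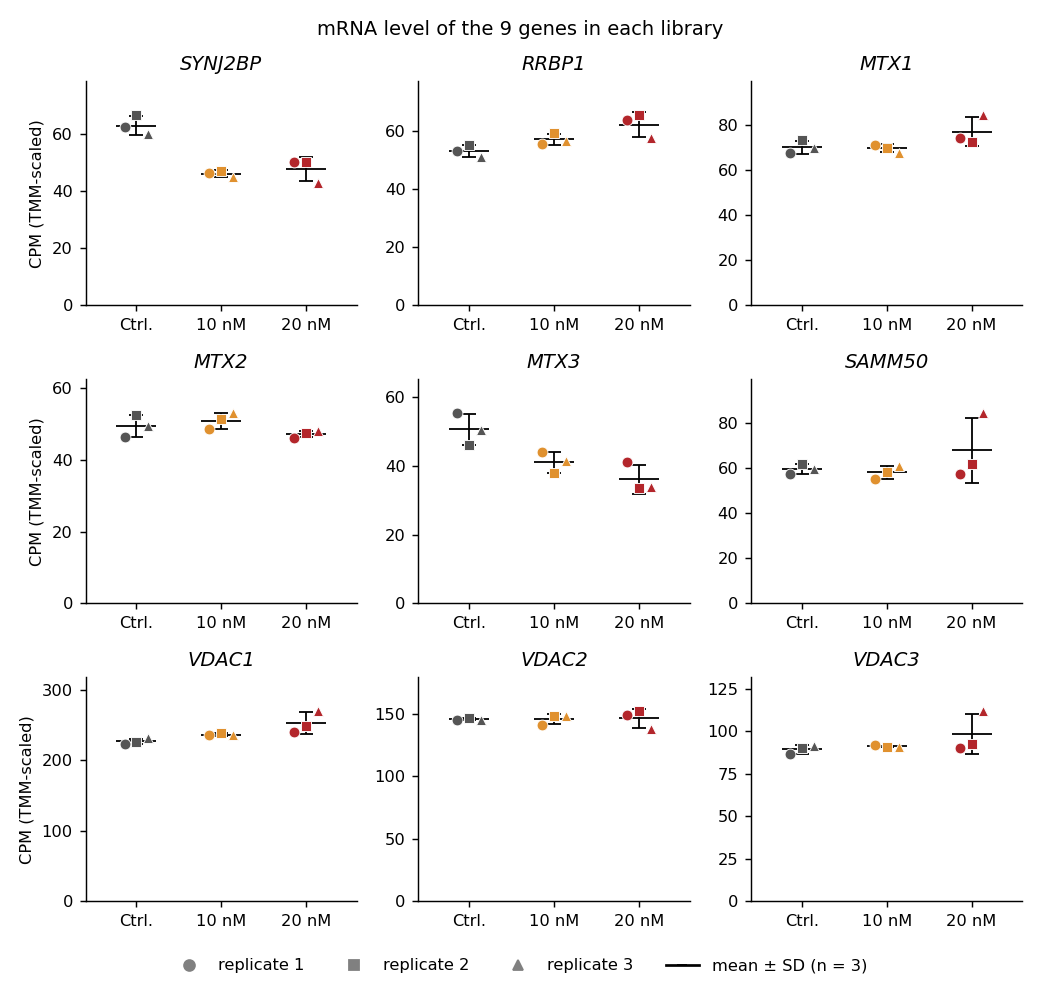
Each panel shows 1 gene, with its TMM-scaled level in CPM on the vertical axis, points for the 3 libraries of Ctrl., 10 nM and 20 nM, and bars for mean ± SD. SYNJ2BP and MTX3 lie below the controls in all 6 mimic libraries and RRBP1 above them, while 20 nM replicate 3 is the high point for SAMM50 (84.5 CPM) and VDAC3 (112 CPM).

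MTX1 and MTX2, the metaxins that form the core pair on the outer membrane, were not called in any comparison. MTX1 (ENSG00000173171, chr1:155208695-155213824, plus strand) was at 67.6, 73.4 and 69.8 CPM in Ctrl., 71.4, 70.0 and 67.8 CPM at 10 nM, and 74.4, 72.7 and 84.5 CPM at 20 nM. Both mimic groups overlapped the controls, although all 20 nM libraries exceeded all 10 nM libraries and replicate 3 was the highest. Its log2 difference was -0.03 at 10 nM (interval -0.13 to 0.08, edgeR adjusted p = 0.863) and 0.06 at 20 nM (interval -0.06 to 0.19, adjusted p = 0.495). Without 20 nM replicate 3 the 20 nM difference was 0.07 (edgeR adjusted p = 0.387). MTX2 (ENSG00000128654, chr2:176269395-176338025, plus strand) was at 46.5, 52.4 and 49.4 CPM in Ctrl., 48.5, 51.2 and 53.0 CPM at 10 nM, and 46.1, 47.5 and 48.0 CPM at 20 nM. The 20 nM libraries all lay below the 10 nM libraries but overlapped the controls. Its log2 difference was 0.04 at 10 nM (interval -0.09 to 0.16, edgeR adjusted p = 0.815) and -0.09 at 20 nM (interval -0.23 to 0.05, adjusted p = 0.384).

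Within the metaxin family the share of MTX3 was small, and its mean was smaller still with the mimic. Per length, that is CPM divided by the bases of all annotated exons, MTX3 made up 11.3% ± 1.42 (SD, n = 3) of the summed metaxin level in Ctrl., 9.22% ± 0.716 at 10 nM and 8.21% ± 1.11 at 20 nM. MTX2 supplied 50.9%, 52.9% and 49.5% and MTX1 37.8%, 37.9% and 42.3% in the same groups. The MTX3 shares at 10 nM and in Ctrl. overlapped, with 9.96% in 10 nM replicate 1 and 9.91% in Ctrl. replicate 2. At 20 nM the highest MTX3 share was 9.45%, below all controls. The log2 ratio of MTX3 to MTX1 in CPM averaged -0.48 ± 0.19 over the controls, -0.77 ± 0.10 over the 10 nM and -1.10 ± 0.23 over the 20 nM libraries. These ratios restate the choice of MTX3 and carry no test.

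SAMM50 (ENSG00000100347, chr22:43955442-44010531, plus strand), the barrel at the heart of the sorting machinery, was at 57.4, 61.7 and 59.6 CPM in Ctrl., 55.3, 58.2 and 61.1 CPM at 10 nM, and 57.6, 62.1 and 84.5 CPM at 20 nM. All groups overlapped, and 20 nM replicate 3 lay far above the other 8 libraries (20 nM mean 68.1 ± 14.4). Its log2 difference was -0.09 at 10 nM (interval -0.18 to 0.01, edgeR adjusted p = 0.406) and -0.03 at 20 nM (interval -0.14 to 0.08, adjusted p = 0.747). The sign at 20 nM turned without a surrogate variable (0.19, edgeR adjusted p = 0.344) and was near 0 without replicate 3 (0.0065).

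VDAC1 (ENSG00000213585, chr5:133971871-134004975, minus strand), the most abundant of the 9 genes, was at 223, 226 and 231 CPM in Ctrl. At 10 nM it was at 235, 238 and 235 CPM. At 20 nM it was at 240.1, 248 and 269 CPM. The 3 groups did not overlap and stood in the order of the concentrations, yet the differences were small. They were 0.05 at 10 nM (interval -0.04 to 0.13, edgeR adjusted p = 0.622), 0.10 at 20 nM (interval 0.01 to 0.19, adjusted p = 0.153) and 0.12 per 20 nM across concentrations (interval 0.03 to 0.20, adjusted p = 0.0576), and none passed in this fit. VDAC1 lies close to the threshold: with the block beside the surrogate variable the 20 nM difference of 0.10 passed (edgeR adjusted p = 0.046), and with the block in place of it 0.16 did not (adjusted p = 0.0819). The trend passed with the block beside surrogate variables (adjusted p = 0.0294), with 1 more surrogate variable (0.0314), without 20 nM replicate 1 (0.16, adjusted p = 0.0226) and without 10 nM replicate 2 (0.12, adjusted p = 0.0396).

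VDAC2 and VDAC3, neither of them called, encode the other isoforms of the channel. VDAC2 (ENSG00000165637, chr10:75210154-75231448, plus strand) was at 145, 147 and 145 CPM in Ctrl., 141, 148 and 148 CPM at 10 nM, and 149, 152 and 138 CPM at 20 nM. All groups overlapped, with a log2 difference of 0.01 at 10 nM (interval -0.08 to 0.10) and 0.05 at 20 nM (interval -0.05 to 0.15, edgeR adjusted p = 0.923 and 0.563). VDAC3 (ENSG00000078668) was at 86.7, 90.1 and 91.3 CPM in Ctrl., 91.7, 91.0 and 91.0 CPM at 10 nM, and 90.4, 92.8 and 112 CPM at 20 nM. Its high value belonged to 20 nM replicate 3, and its log2 differences were 0.00 (interval -0.09 to 0.09) and 0.02 (interval -0.08 to 0.12, edgeR adjusted p = 0.993 and 0.843). Without that library the 20 nM difference was 0.03 (edgeR adjusted p = 0.662). VDAC1 made up 48.1%, 49.0% and 49.9% of the summed VDAC level per length in Ctrl., 10 nM and 20 nM. VDAC genes have processed pseudogenes, and 1 of them in the table, VDAC1P8, averaged 1.36, 1.22 and 1.06 CPM, so reads of near-identical copies may be split between them.

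**Figure D3:**
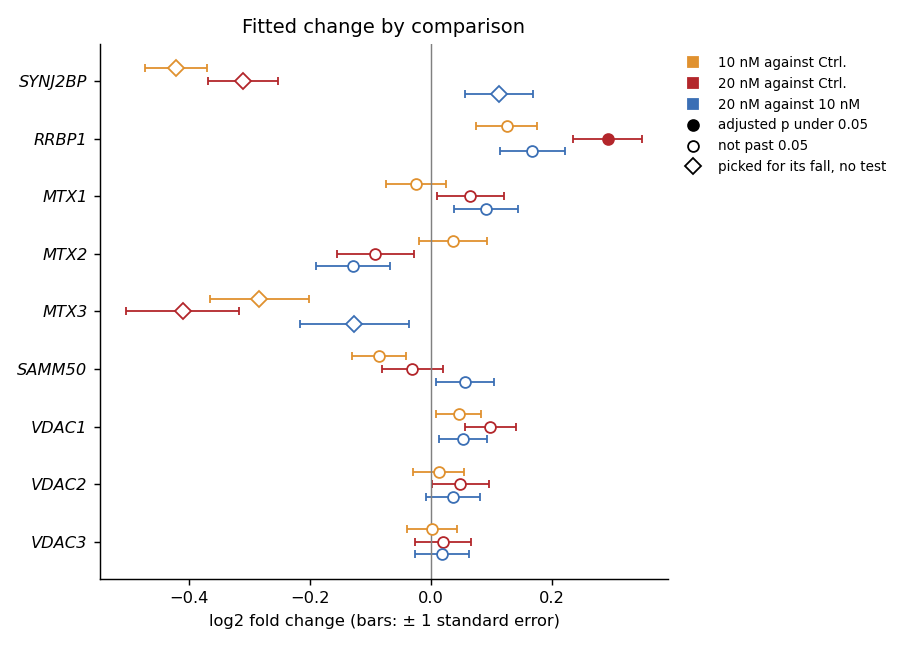
Fitted log2 fold changes (horizontal axis, bars ± 1 standard error) of the 9 genes for 10 nM against Ctrl., 20 nM against Ctrl. and 20 nM against 10 nM; filled circles passed an adjusted p of 0.05, open circles did not, and diamonds mark the untested SYNJ2BP and MTX3. RRBP1 at 20 nM (0.29) is the only filled point, and SYNJ2BP has its larger difference at 10 nM (-0.42) whereas MTX3 has it at 20 nM (-0.41).

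The level of the 9 genes per length spanned about an order of magnitude. In Ctrl., VDAC1 led with 74.3 ± 1.32 CPM per kb, followed by VDAC2 (52.0 ± 0.292), MTX2 (28.8 ± 1.74), VDAC3 (28.1 ± 0.762), MTX1 (21.4 ± 0.884), SAMM50 (9.29 ± 0.342), SYNJ2BP (8.9 ± 0.470), RRBP1 (7.61 ± 0.292) and MTX3 (6.38 ± 0.575). The neighbours MTX2 and VDAC3, and SAMM50 and SYNJ2BP, overlapped over their libraries, and the other neighbouring pairs were separate. This depends on the length used: divided by the longest transcript, VDAC3 averaged 63.0 against 31.1 for MTX2, and SAMM50 18.3 against 8.9 for SYNJ2BP. With the mimic SYNJ2BP and RRBP1 changed places, to 6.52 ± 0.156 and 8.19 ± 0.275 CPM per kb at 10 nM and 6.74 ± 0.595 and 8.92 ± 0.603 at 20 nM. The order of this pair also depends on the length: by the longest transcript, RRBP1 was already above SYNJ2BP in Ctrl. (10.5 against 8.9).

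**Figure D4:**
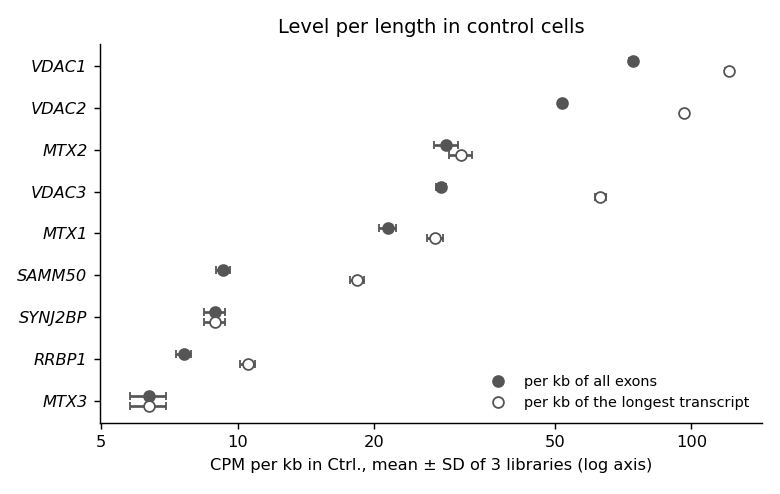
Level per length in CPM per kb (log axis) of the 9 genes in Ctrl., mean ± SD of 3 libraries. Filled points are per kb of all exons and open points per kb of the longest transcript. Per kb of all exons, VDAC1 and VDAC2 lead with 74.3 and 52.0, and MTX3 is lowest with 6.38.

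The surroundings of these genes were read through 5 lists of their biology. Among 50 other proteins of the outer mitochondrial membrane, edgeR called 0 at 10 nM (4 with an unadjusted p under 0.05) and 7 at 20 nM, of which 6 rose and 1 fell, or 14%, near the 13.9% of all genes, and their median log2 difference at 20 nM was 0.01. With the block, 0 and 3 were called at 10 nM (in place of the surrogate variable and beside it), against 0.0201% and 11.2% of all genes. At 20 nM 5 and 14 were called with it, or 10% and 28%, against 13.6% and 26% of all genes. GPAM, which starts glycerolipid synthesis on that membrane, rose by 0.44 (SE 0.055, edgeR adjusted p = 0.000259). Its level was 52.1, 50.2 and 48.6 CPM in Ctrl., 59.0, 54.5 and 52.1 CPM at 10 nM, and 70.0, 63.3 and 53.4 CPM at 20 nM. The 20 nM replicate 3 thus lay within the 10 nM range, and without it the rise was 0.40 (edgeR adjusted p = 0.000578). The GPAM call was lost under 2 of 20 alternatives, over which its difference ran from 0.30 to 0.48. SLC25A46, an outer membrane protein with a part in mitochondrial shape, rose by 0.40 (SE 0.061, adjusted p = 0.000928), with means of 50.5 ± 2.97, 58.9 ± 1.496 and 67.7 ± 2.36 CPM over the 3 groups and no overlap between them. VAT1, a membrane-associated oxidoreductase, fell by 0.22 (SE 0.047, adjusted p = 0.00914) in the model, with 202, 214 and, in replicate 3, 253 CPM at 20 nM against 225 to 245 CPM in Ctrl. Without that replicate the difference of VAT1 was -0.19 (edgeR adjusted p = 0.0152). The VAT1 call was lost under 4 of 20 alternatives. Among them were the block in place of the surrogate variable (-0.09, adjusted p = 0.327) and leaving out 20 nM replicate 1 (-0.16, adjusted p = 0.126).

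Of 41 proteins of ER and mitochondria contacts 40 were in the table (CAV1 was not), and 8 were called at 20 nM, 6 higher and 2 lower, or 20% against 13.9% of all genes, with a median log2 difference of 0.09 against 0.00. The share was not tested. With the block 11 and 15 were called at 20 nM, or 27.5% and 37.5%, against 13.6% and 26% of all genes. At 10 nM edgeR called 0, with 7 at an unadjusted p under 0.05. With the block 0 and 4 were called at 10 nM, or 0% and 10%, against 0.0201% and 11.2% of all genes. CANX, calnexin, a chaperone for glycoproteins in the ER, rose by 0.36 at 20 nM (SE 0.049, adjusted p = 0.000521), from 408 ± 19.3 CPM in Ctrl. to 450 ± 7.82 and 520 ± 10.4. Every 20 nM library lay above every 10 nM library and these above every control. The fallers were less uniform. PPP1R15A, a stress-induced phosphatase subunit, fell by 0.41 (SE 0.11, adjusted p = 0.0307) with 18.7, 22.1 and 33.4 CPM at 20 nM against 23.5 to 30.01 in Ctrl., and GRAMD1A, a sterol carrier of the ER, fell by 0.15 (SE 0.046, adjusted p = 0.0494) with 184, 187 and 227 CPM against 200 to 208. In both, replicate 3 was above all controls. Without it the difference was -0.34 for PPP1R15A and -0.13 for GRAMD1A (edgeR adjusted p = 0.0224 and 0.0483). The call of PPP1R15A was lost under 7 of 20 alternatives and that of GRAMD1A under 9, among them the block in place of the surrogate variable (adjusted p = 0.669 and 0.808) and leaving out 20 nM replicate 1 (0.26 and 0.291) or 20 nM replicate 2 (0.0648 and 0.212). That of PPP1R15A also needed Ctrl. replicate 3 (0.0964 without it), and that of GRAMD1A Ctrl. replicates 1 and 2 (0.0778 and 0.126) and 10 nM replicates 1 and 2 (0.0703 and 0.0601).

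Of 11 binding partners of SYNJ2BP 9 were in the table (DLL4 and LRP2 were not). Only SYNJ2 was called at 20 nM (11.1% against 13.9% of all genes, median log2 difference -0.03). With the block 2 and 3 were called at 20 nM, or 22.2% and 33.3%, against 13.6% and 26% of all genes. At 10 nM edgeR called 0, with 0 at an unadjusted p under 0.05. SYNJ2, the lipid phosphatase after which SYNJ2BP is named, was at 14.1, 14.9 and 15.1 CPM in Ctrl., 14.8, 15.6 and 15.9 CPM at 10 nM, and 18.0, 17.8 and 16.7 CPM at 20 nM. The 20 nM libraries all lay above the rest, and SYNJ2 was higher by 0.28 (SE 0.085, adjusted p = 0.0445). This call was lost under 12 of 20 alternatives, among them DESeq2 (adjusted p = 0.154), the block in place of the surrogate variable (0.0638) and leaving out any control (0.0708 to 0.126), 20 nM replicate 1 (0.158), 20 nM replicate 2 (0.173) or 10 nM replicate 2 (0.0572). PINK1, a kinase whose mRNA is known to be carried to mitochondria through SYNJ2BP, was at 42.0 ± 0.697, 44.6 ± 1.43 and 43.3 ± 3.68 CPM (edgeR adjusted p = 0.596 and 0.72).

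All 15 sorting and cristae partners of SAMM50 were in the table, and 1 was called at each dose, CHCHD10, a protein of the space between the membranes. This is 6.67% of the list, against 0.649% of all genes at 10 nM and 13.9% at 20 nM, and the median log2 difference at 20 nM was 0.05. With the block, 0 and 1 were called at 10 nM, or 0% and 6.67%, against 0.0201% and 11.2% of all genes. At 20 nM 2 and 4 were called with it, or 13.3% and 26.7%, against 13.6% and 26% of all genes. The level of CHCHD10 was 36.2, 40.0 and 38.9 CPM in Ctrl. and 48.2, 46.0 and 49.0 CPM at 10 nM, where it rose by 0.39 (SE 0.070, edgeR adjusted p = 0.0281). At 20 nM it was 55.5, 53.9 and, in replicate 3, 33.5 CPM, and the modelled rise was 0.54 (SE 0.077, adjusted p = 0.000691). So 2 of the 20 nM libraries were above and 1 was below all controls. Without that library the rise was 0.51 (adjusted p = 0.000146). The CHCHD10 call was lost under 6 of 20 alternatives at 10 nM and under 3 of 20 at 20 nM. With the block in place of the surrogate variable CHCHD10 passed at neither dose (adjusted p = 0.569 and 0.213). The 10 nM call was also lost without Ctrl. replicate 1 (0.0918), 20 nM replicate 1 (0.061) or 10 nM replicates 2 or 3 (0.0833 and 0.0766).

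Among 22 VDAC partners 5 were called at 20 nM, 3 higher and 2 lower (22.7% against 13.9% of all genes, not tested, median log2 difference 0.04 against 0.00), and edgeR called 0 at 10 nM with 5 at an unadjusted p under 0.05. With the block, 0 and 5 were called at 10 nM, or 0% and 22.7%, against 0.0201% and 11.2% of all genes. At 20 nM 5 and 10 were called with it, or 22.7% and 45.5%, against 13.6% and 26% of all genes. HK2, a hexokinase that docks on VDAC, was at 84.9, 91.8 and 82.1 CPM in Ctrl., 91.7, 105 and 93.0 CPM at 10 nM, and 120, 135 and 145 CPM at 20 nM. The 20 nM libraries stood clear of all others, and HK2 rose by 0.55 (SE 0.070, edgeR adjusted p = 0.000326). ITPR1, the calcium release channel of the ER that is linked to VDAC1, rose by 0.26 (SE 0.049, adjusted p = 0.00353), from 107.4 ± 4.73 CPM to 115 ± 1.76 and 131 ± 2.62. SLC25A6, an ADP and ATP carrier of the inner membrane, fell by 0.33 (SE 0.056, adjusted p = 0.00236), with 854, 974 and 1173 CPM at 20 nM against 1086 to 1173 in Ctrl. TUBB, a tubulin, fell by 0.20 (SE 0.051, adjusted p = 0.0197), with 2158, 2101 and 2502 CPM against 2384 to 2494. In both, replicates 1 and 2 lay below all controls and replicate 3 at or above the highest one, and the calls held without that replicate (edgeR adjusted p = 0.00468 for SLC25A6 and 0.00772 for TUBB). The SLC25A6 call was lost under 4 of 20 alternatives and that of TUBB under 5. Among these, both calls were lost with the block in place of the surrogate variable (0.197 and 0.198) and without 20 nM replicate 1 (0.0918 and 0.061), and that of TUBB without 20 nM replicate 2 (0.133). Several genes, such as ITPR1, stand in more than 1 list, so the list counts overlap.

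**Figure D5:**
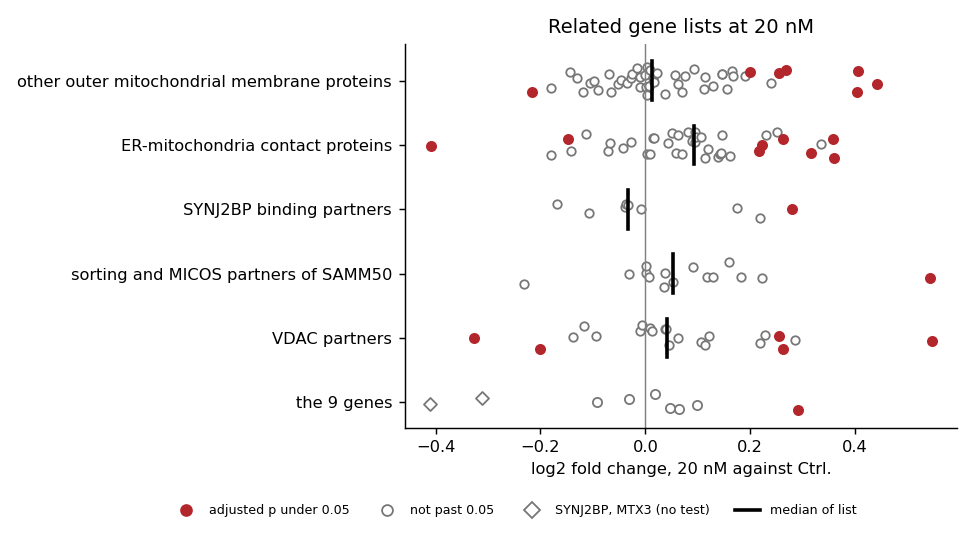
Each point is a gene of 1 of the 5 related lists, or of the 9 genes, at its fitted log2 fold change at 20 nM against Ctrl. (horizontal axis); filled points passed an adjusted p of 0.05, diamonds are the untested SYNJ2BP and MTX3, and black bars are list medians. The medians lie between -0.03 (SYNJ2BP binding partners) and 0.09 (ER and mitochondria contacts), and the highest point is HK2 at 0.55.

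The genes whose log2 CPM followed SYNJ2BP most closely over the 9 libraries, among 10508 genes with a mean of at least 10 CPM, were NEIL3, a DNA glycosylase (Pearson r = 0.972), CTNNA1, a catenin (0.963), and HIBCH, an enzyme of valine breakdown (0.962). For MTX3 they were E2F7, a repressor of cell cycle genes (0.990), NBPF9, of a family of near-identical copies whose counts are uncertain (0.984), and ORMDL1, a regulator of sphingolipid synthesis in the ER (0.984). For RRBP1 they were LRPPRC, which stabilises mitochondrial mRNAs (0.974), DUSP16, a phosphatase of MAP kinases (0.966), and CREG1, a lysosomal glycoprotein (0.957). SYNJ2BP and MTX3 had r = 0.746 with each other. Among the tested genes SAMM50 and VDAC3 had r = 0.943, where both were highest in 20 nM replicate 3. These values describe 9 libraries that share groups and the 1 library apart, and they carry no test.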

How the data were processed

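Per the labels and the study's methods, the authors quantified paired polyadenylated RNA reads with salmon against GRCh38.p13 and an Ensembl annotation, summed them to genes and dropped weakly expressed ones by filterByExpr. Estimated counts, 88.8% of them not whole, were deposited for 14943 genes in 9 libraries. Whether strand was used is not given in the sources used here. The authors' deposited log2 expression values, adjusted for surrogate variables, and their tables of log2 fold changes and p-values, were not used. 0 columns of per-sample values were left aside for lack of a label.

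Counts were rounded and fitted with edgeR 4.0.16 (R 4.3.3): TMM scaling, quasi-likelihood test, all 9 libraries in each fit. Surrogate variables came from sva 3.50.0 on log2 CPM (prior count 2, num.sv method be, seed 1, limited to 1 to 3). The group model received 1 and the concentration model 2. The study does not state their number. p-values were adjusted by Benjamini-Hochberg over 14943 genes, with a threshold of 0.05. Standard errors were derived from each log2 fold change and its F statistic. The comparisons were 10 nM and 20 nM against Ctrl., 20 nM against 10 nM, and concentration as a number. Groups and replicate numbers came from the sample titles. Deviations of same-numbered libraries from their group means correlated over 0.1 across genes in all 6 pairs of a control with a mimic library (0.107 to 0.185), but not in 1 of the 3 pairs of 10 nM with 20 nM (0.0288). Different numbers gave -0.17 to 0.0321. The numbers were therefore read as a possible pairing, from the data and not the labels. The main fits do not hold this pairing, and the block enters only as an alternative.

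The 9 genes and the lists were chosen with earlier results of these data known. Beyond the 9 genes, SYNJ2BP-COX16, COX16 and PINK1, each list gave up to 2 genes per direction and dose with the smallest adjusted p past the threshold, and SYNJ2BP, MTX3 and RRBP1 the 3 genes most like them. A gene that this rule names, and some marker genes, are not reported here. VDAC1P8, CPM per kb and the names of absent genes were added as context. UTRs, exons and positions came from GENCODE 44 (GRCh38.p14), with UTRs of at least 50 bases compared. Fits were tested on simulated counts. Alternatives used DESeq2 1.42.0 among others, and figures Python 3.11.15 with matplotlib 3.10.9.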

Additional observations from a re-analysis of the deposited data

Results flagged for a closer look

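4 of the genes described differed between the doses in the direct comparison of 20 nM with 10 nM (edgeR quasi-likelihood test over all 14943 genes), all at 3 libraries a group. In this comparison 2.79% of all genes were called. The 4 genes had been named for their small adjusted p at 20 nM against Ctrl., which uses the same 20 nM libraries. A difference in the same direction was thus favoured in advance, and the values are given as a description. HK2 was higher at 20 nM than at 10 nM by 0.40 (SE 0.067, adjusted p = 0.00593), with a log2 difference from Ctrl. of 0.14 at 10 nM and 0.55 at 20 nM. GPAM was higher by 0.27 (SE 0.052, adjusted p = 0.015), with 0.17 and 0.44, and its 20 nM replicate 3 lay within the 10 nM range. CANX was higher by 0.21 (SE 0.047, adjusted p = 0.0282), with 0.14 and 0.36. VAT1 was lower, at -0.20 (SE 0.044, adjusted p = 0.0325), with -0.02 and -0.22, and its 20 nM replicate 3 lay above all 10 nM libraries. In the main fit none of the 7 tested genes differed between the doses past the threshold. With the block beside the surrogate variable RRBP1 did (edgeR adjusted p = 0.0418). Groups of 3 libraries are too small for a test of single outlying libraries.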

How the results depend on the processing

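The number of called genes among the 7 stayed at 0 for 10 nM under all 20 alternatives, which called 3 to 1672 of all genes. For 20 nM it was 1, where 2074 of all 14943 genes were called. It was 0 without a surrogate variable (954 of all genes) and with only the 20 nM and Ctrl. libraries (344). For the dose trend it was 1 (2620 of all genes), but 0 without a surrogate variable (1236) and 2 with 1 more (3284). Leaving out single libraries gave 1 to 2. It was 2 without 20 nM replicate 1 (3970 of all genes) and without 10 nM replicate 2 (3127). The added gene was VDAC1 (edgeR adjusted p = 0.0226 and 0.0396). RRBP1 at 20 nM ranged from 0.22 to 0.32 (adjusted p 0.000114 to 0.18). With the replicate number as a block beside the surrogate variables, the called number was 2 at 20 nM (RRBP1 and VDAC1), with 3884 of all genes. It was 1 for 20 nM against 10 nM (RRBP1, 0.16, edgeR adjusted p = 0.0418), with 1517 of all genes, and 2 for the dose trend, with 3569. All genes called at 10 nM went from 97 to 1672. With the block in place of the surrogate variables, 3 of all genes were called at 10 nM. Beyond the losses given beside each gene, the block changed no other call of a gene described. Same-numbered 10 nM and 20 nM libraries correlated at 0.174 and 0.176 for replicates 1 and 3, but at 0.0288 for replicate 2. Whether the numbers pair these 2 groups is thus not settled, and the block is an alternative in every comparison.

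SYNJ2BP ranged from -0.45 to -0.39 at 10 nM and -0.41 to -0.27 at 20 nM, and MTX3 from -0.34 to -0.22 and -0.59 to -0.30. Signs turned in 26 pairs of gene and setting, all of genes that were not called. At 10 nM this was VDAC3 with 1 more surrogate variable (-0.00067), and on leaving out libraries MTX1 (-0.050 to 0.0062), MTX2 (-0.0030 to 0.079), VDAC2 (-0.0028 to 0.043), VDAC3 (-0.013 to 0.030) and COX16 (-0.049 to 0.065). At 20 nM SAMM50 was 0.19 without a surrogate variable, 0.18 with the block in their place and 0.19 with only the groups compared, and PINK1 was 0.047, 0.044 and 0.039. COX16 was 0.022 with the block beside surrogate variables. On leaving out libraries SAMM50 ran from -0.061 to 0.065, VDAC3 from -0.0054 to 0.064, COX16 from -0.12 to 0.011 and PINK1 from -0.067 to 0.022. For 20 nM against 10 nM, VDAC2 was -0.0034 with only the groups compared and VDAC3 -0.0079 to 0.049 on leaving out libraries. All genes called ran from 344 to 3884 at 20 nM, 16 to 1517 for 20 nM against 10 nM and 1236 to 3970 for the trend. The causes were not tested. Calls of SYNJ2, GRAMD1A and PPP1R15A were lost under 12, 9 and 7 of 20 alternatives, and those of CANX, HK2 and SLC25A46 under none of the 20. At 20 nM those of TUBB, SLC25A6 and VAT1 were lost under 5, 4 and 4, and those of GPAM, RRBP1 and ITPR1 under 2, 2 and 1. The CHCHD10 call was lost under 6 at 10 nM and 3 at 20 nM.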
